A study of Mus musculus with 6 samples.

Results

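Myosin light chains were followed in vastus lateralis, a fast muscle of the quadriceps, through all probes of an Illumina mouse bead array that the platform annotation assigns to Myl1, Myl2, Myl3, Myl4, Mylpf, Myl6 or Myl6b. Of these 7 genes, 6 had a probe under their symbol, 8 probes in all, and Mylpf, the fast regulatory light chain, was not analysed here. Probes entered the test if 3 or more of the 6 arrays gave them a detection p under 0.05, as did 6 of the 8 light chain probes (5 genes) and 19563 of the 46632 probes on the array; these are called retained. The muscle came from 3 mice that carry an excess of FRG1, a gene next to the locus of facioscapulohumeral muscular dystrophy (Sample871, Sample873 and Sample874), and from 3 wild type mice (Sample872, Sample906 and Sample923). The labels give both groups as C57Bl/6J females aged 4 weeks, and the sources used here name neither the transgene's promoter nor its founder lines. The comparison asks what an excess of FRG1 changes in muscle RNA, and 1 array was run per sample.

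Each head of a sarcomeric myosin heavy chain carries an essential and a regulatory light chain, small calmodulin-like proteins that stiffen the lever arm and tune the speed of contraction. Fast fibres pair the essential chain Myl1 with Mylpf, and slow fibres and the ventricle pair the essential chain Myl3 with the regulatory chain Myl2. Myl4 is the essential chain of embryonic skeletal muscle and of the atrium, and in skeletal muscle it is normally replaced by the adult chains as fibres mature. Myl6 is the essential chain of smooth muscle and non-muscle myosin, and Myl6b is a related chain of slow muscle and non-muscle cells.

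The embryonic chain Myl4 and the slow chain Myl3 passed the test in opposite directions, and their upstream sequences are shown for that reason. The sequences are the 250 bases before the 1 start site that the RefSeq promoter table of build GRCm38.p6 holds for each gene, both on the plus strand, at chr11:104550413-104550662 for Myl4 and chr9:110763428-110763677 for Myl3. Capitals mark matches, on either strand, to the E-box CANNTG bound by myogenic factors, the M-CAT element CATTCC, the CArG box bound by serum response factor, the MEF2 site and TATAAA.
Myl4: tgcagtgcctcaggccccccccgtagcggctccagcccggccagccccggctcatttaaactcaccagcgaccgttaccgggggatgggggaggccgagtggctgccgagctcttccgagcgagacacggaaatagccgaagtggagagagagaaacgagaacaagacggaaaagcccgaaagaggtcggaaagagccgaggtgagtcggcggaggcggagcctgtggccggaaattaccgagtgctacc
Myl3: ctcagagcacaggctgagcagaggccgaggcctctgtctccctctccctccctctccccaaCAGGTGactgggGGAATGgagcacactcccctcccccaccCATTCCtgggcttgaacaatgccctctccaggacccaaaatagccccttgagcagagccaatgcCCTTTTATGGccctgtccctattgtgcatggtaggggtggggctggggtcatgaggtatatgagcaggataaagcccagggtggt
The Myl3 window held 1 E-box, 2 M-CAT elements and 1 CArG box, the last between 85 and 76 bases before the start. The Myl4 window held no match to any of the 5 motifs, which says only that these letters are not in this window. Over the 32851 windows of the same length in the table, 66.2% held an E-box, 12.6% an M-CAT element, 1.47% a CArG box, 2.92% a MEF2 site and 12.4% the letters TATAAA. No overlap occurred between the Myl3 matches, and a match is a description of the letters, not a bound site.

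Expression values below are log2 intensities after background correction and quantile normalization, unless a sentence says raw signal, which is the deposited intensity. A fold change was called when its adjusted p in limma was under 0.05, with Benjamini-Hochberg adjustment over all retained probes. The linear model of limma was fitted over these probes, with each probe's variance drawn toward a value common to all. Of the 6 retained light chain probes 1 was higher and 1 lower in FRG1 muscle, together 33.3% of them, beside 13.8% of all retained probes (7.10% higher, 6.71% lower). In 5 of the 6 the FRG1 and wild type values did not overlap, beside 33.7% of all retained probes. Both member shares rest on 6 probes and were not tested. The arrays resembled each other closely, with Pearson correlations across retained probes of 0.990 to 0.993 within the FRG1 group, 0.982 to 0.991 within the wild type group and 0.966 to 0.980 between groups. Wild type Sample923 had the smallest summed signal and stood apart from the other wild type samples on the second principal component (19.2% of the variance). The muscle genes Acta1, Ckm, Ttn, Des and Myh4 were detected on all 6 arrays, whereas the 1 Frg1 probe was detected on 0 of 6 and so checks neither the transgene nor the labels.

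**Figure D1:**
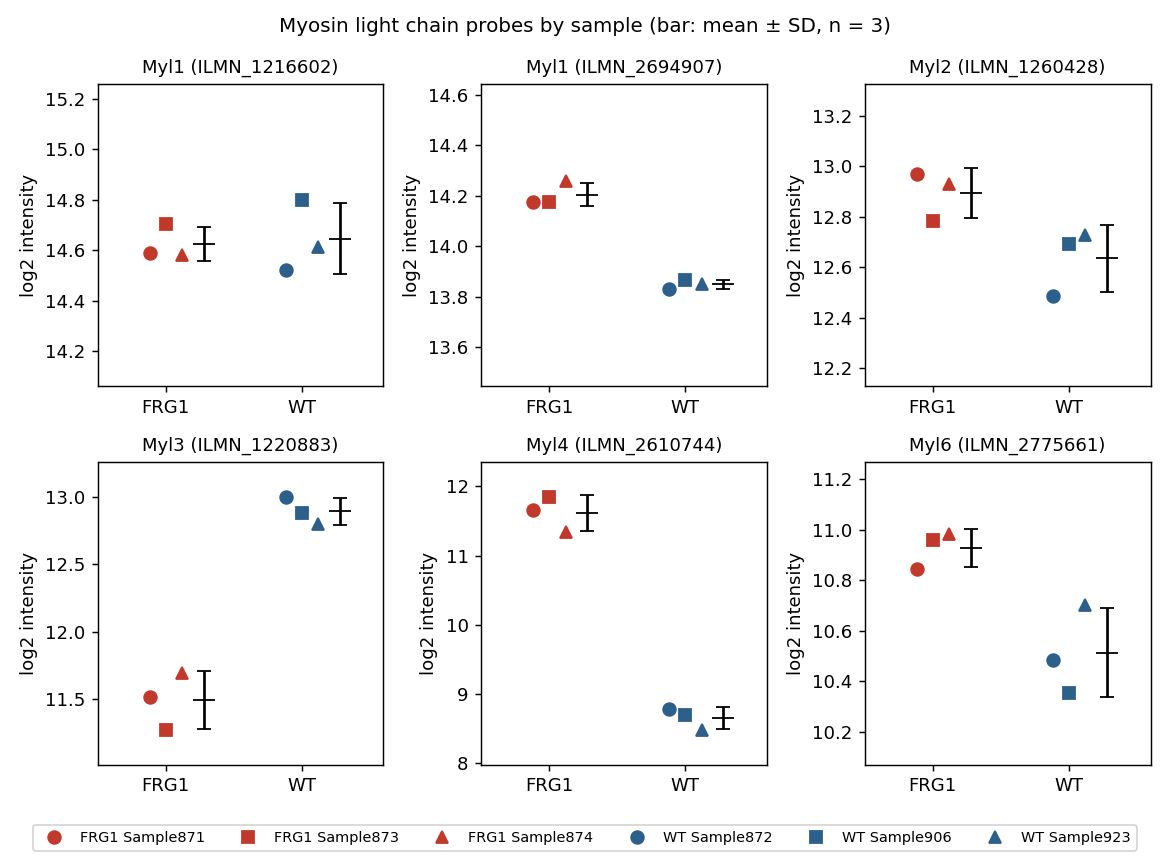
Normalized log2 intensity of the 6 retained light chain probes in each sample, FRG1 in red and wild type in blue, 1 panel per probe with its own axis range; black bars show mean ± SD (n = 3). The groups separate widely for Myl3 and Myl4, separate narrowly for Myl2, Myl6 and the second Myl1 probe, and overlap for the first Myl1 probe.

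Myl4 rose in every FRG1 sample. Its probe ILMN_2610744 had a raw signal of 3070 in Sample871, 4147 in Sample873 and 2799 in Sample874 of the FRG1 group, against 496 in Sample872, 404 in Sample906 and 327 in Sample923 of the wild type group. The lowest FRG1 value was thus far above the highest wild type value, and the probe was detected on all 6 arrays, so wild type muscle at this age had a measurable Myl4 signal too. The log2 intensity was 11.61 ± 0.26 in FRG1 muscle and 8.65 ± 0.16 in wild type muscle (SD, n = 3 each). The log2 fold change was 2.96 ± 0.16 (SE; 95% interval 2.61 to 3.31), which is 7.78-fold (limma adjusted p = 8.19e-06). It ranked 7th among the increases of all 19563 retained probes. The other Myl4 probe, ILMN_1252533, was annotated through a different transcript (AK084544) and was detected on 0 of 6 arrays. Its raw signal lay between 42.4 and 46.8 in FRG1 muscle and between 40.4 and 44.1 in wild type muscle, so it gives no fold, and the increase rests on 1 probe.

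Myl3, the essential chain of slow fibres, fell in every FRG1 sample. Its raw signal was 2773 in Sample871, 2784 in Sample873 and 3581 in Sample874 of the FRG1 group, against 8956 in Sample872, 7217 in Sample906 and 6212 in Sample923 of the wild type group. The highest FRG1 value lay below the lowest wild type value, with the wild type samples the more scattered on the raw scale. The log2 intensity was 11.49 ± 0.21 in FRG1 muscle and 12.90 ± 0.10 in wild type muscle (SD, n = 3 each). The log2 fold change was -1.40 ± 0.14 (SE; 95% interval -1.72 to -1.09), so the value was 2.65-fold higher in wild type muscle (limma adjusted p = 0.000263). It ranked 26th among the decreases of all retained probes. In a piece of bulk muscle, fewer cells of a type and less RNA per cell cannot be told apart, here and in the results that follow.

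Myl2, the regulatory partner of Myl3 in slow fibres, did not pass the test, and its values leaned the other way. Its raw signal was 7289, 7935 and 8164 in FRG1 Sample871, Sample873 and Sample874, against 6280, 6324 and 5838 in wild type Sample872, Sample906 and Sample923. All 3 FRG1 values were above all 3 wild type values, but after normalization the nearest pair lay close together, at 12.78 in FRG1 Sample873 and 12.73 in wild type Sample923. The log2 fold change was 0.26 ± 0.12 (SE; 95% interval -0.02 to 0.54; limma adjusted p = 0.205).

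For Myl1, the essential chain of fast fibres, the 2 retained probes gave different values, and neither passed. The first, ILMN_1216602, annotated through BC059087, ranked between 11 and 37 from the brightest probe of each array. Its raw signal was 22435, 28333 and 24985 in the FRG1 samples and 25578, 29552 and 23659 in the wild type samples, taken in the order of their sample numbers, and the groups overlapped. Its log2 fold change was -0.02 ± 0.12 (SE; 95% interval -0.30 to 0.26; limma adjusted p = 0.937). The second probe, ILMN_2694907, annotated through NM_021285, had a raw signal of 16903, 20115 and 19798 in the FRG1 samples and of 16391, 14676 and 12863 in the wild type samples. Its log2 intensity was higher in all 3 FRG1 samples, with a log2 fold change of 0.35 ± 0.11 (SE; 95% interval 0.11 to 0.60; limma adjusted p = 0.0618). Myl1 makes a long and a short chain from different starts, and the annotation used here does not say which of them each probe detects.

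Myl6, the smooth muscle and non-muscle chain, had values above wild type in every FRG1 sample without passing. Its raw signal was 1763, 2242 and 2214 in FRG1 Sample871, Sample873 and Sample874, against 1604, 1224 and 1457 in wild type Sample872, Sample906 and Sample923. The log2 fold change was 0.42 ± 0.13 (SE; 95% interval 0.13 to 0.71; limma adjusted p = 0.0622), close to the threshold on which the call turns. Without wild type Sample923 it passed, at 0.51 (adjusted p = 0.0268). With any other sample left out it did not pass, and over the alternatives its adjusted p in limma went up to 0.181. Myl6b was detected on 1 of 6 arrays, FRG1 Sample874, and was not tested. Its raw signal was 51.1, 48.4 and 56.9 in the FRG1 samples and 45.5, 44.7 and 44.0 in the wild type samples, near the background of the array.

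**Figure D2:**
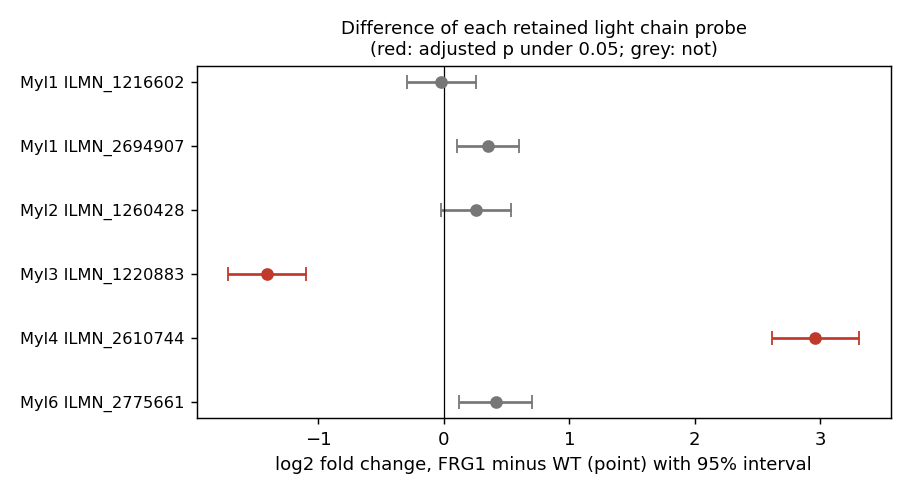
Log2 fold change (FRG1 minus wild type) of each retained light chain probe with its 95% interval from limma; red points passed an adjusted p of 0.05 and grey points did not. Myl4 lies at 2.96 and Myl3 at -1.40, and the intervals of the other 4 probes lie between -0.30 and 0.71.

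Differences between light chains were then taken on the same array, so that the brightness of each probe cancels between groups and only unequal change remains. Myl4 minus Myl1 was -2.93, -2.86 and -3.25 in FRG1 Sample871, Sample873 and Sample874, against -5.74, -6.10 and -6.13 in wild type Sample872, Sample906 and Sample923. The difference between groups was 2.98 ± 0.17 log2 units (SE). Myl3 minus Myl1 averaged -3.13 ± 0.28 in FRG1 muscle and -1.75 ± 0.21 in wild type muscle (SD, n = 3 each), a difference of -1.38 ± 0.20 (SE). Within the slow pair, Myl2 minus Myl3 was 1.46, 1.51 and 1.23 in the FRG1 samples, against -0.52, -0.19 and -0.08 in the wild type samples. The difference between groups was 1.66 ± 0.16 log2 units (SE), with no overlap. That lack of overlap follows from the single genes, as Myl2 was higher and Myl3 lower in every FRG1 sample. The differences from Myl1 likewise restate the single-gene log2 fold changes of Myl4 (2.96) and Myl3 (-1.40), as that of the first Myl1 probe was -0.02. In each of these 3 pairs the two-sided exact permutation p was 0.1, also after Benjamini-Hochberg adjustment over the 3 pairs, and 0.1 is the smallest value that 3 against 3 samples allow, so these differences cannot reach 0.05 by this test. With the second Myl1 probe the first 2 differences were 2.60 and -1.76.

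**Figure D3:**
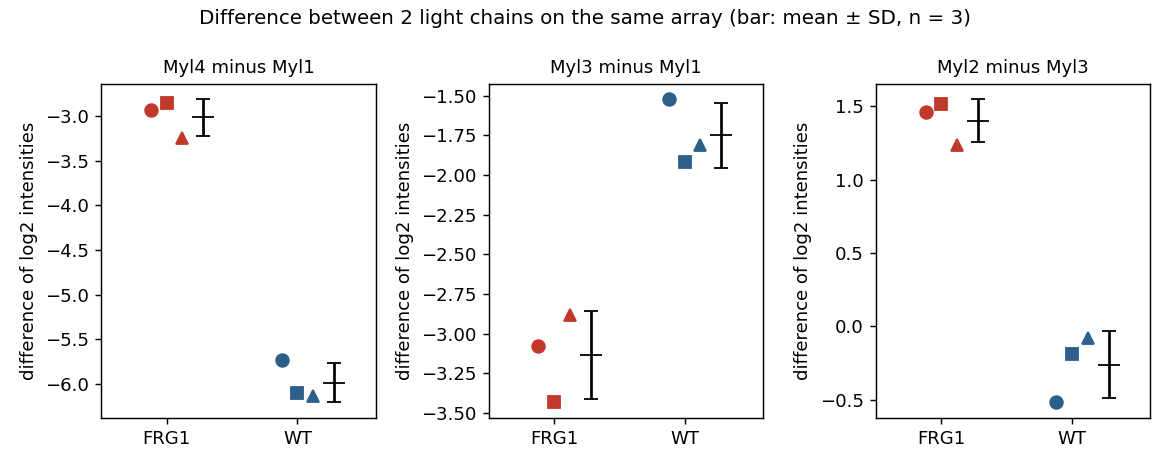
Difference of log2 intensity between 2 light chains on the same array, by sample, FRG1 in red and wild type in blue; black bars show mean ± SD (n = 3). In each of the 3 panels the FRG1 samples lie apart from the wild type samples.

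Genes that act with the light chains were read from the same fit, with 1 probe per gene (the brightest); over all 10287 genes 7.53% were higher and 7.23% lower, and the median log2 fold change was -0.03. Among sarcomeric myosin heavy chains, 4 of the 9 listed were measured, 1 rose and 1 fell. The perinatal chain Myh8 rose 18.5-fold, with a log2 intensity of 11.33 ± 0.08 in FRG1 muscle and 7.12 ± 0.12 in wild type muscle (SD, n = 3 each; limma adjusted p = 2.34e-07). The IIB chain Myh4 fell by 0.45 on the log2 scale (adjusted p = 0.0446 in limma), on 1 of its 2 retained probes (-0.62 and adjusted p = 0.0655 on the other), a call lost under 8 of 15 alternatives and when any of 5 samples was left out (adjusted p up to 0.158). The IIA chain Myh2 had a log2 fold change of 0.06 ± 0.17 (SE). The slow chain Myh7, the partner of Myl2 and Myl3, had no probe under its symbol, so the slow heavy chain was not analysed here.

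Other slow fibre genes mostly ran against Myl3. Of 10 measured, 6 rose and 1 fell, with a median log2 fold change of 0.60. Tnnt1, slow troponin T, had a log2 intensity of 11.95 ± 0.34 in FRG1 muscle and 10.57 ± 0.13 in wild type muscle (SD, n = 3 each), a fold change of 1.37 ± 0.17 (SE, log2; limma adjusted p = 0.000893). Csrp3, a Z-disc protein abundant in slow fibres and heart, rose by 1.40 ± 0.20. Pln, phospholamban, the inhibitor of the slow and cardiac calcium pump, fell like Myl3, by 0.75 on the log2 scale (adjusted p = 0.00345 in limma). Of 13 measured fast fibre genes 3 fell and 10 did not pass, with a median of -0.05. Actn3, the alpha-actinin of fast fibres, fell by 0.79 (adjusted p = 0.00238), on both of its retained probes. Casq1, the fast calsequestrin, fell by 0.45 (adjusted p = 0.0465 in limma) on 1 of its 2 retained probes, with -0.69 and adjusted p = 0.0847 on the other. Its call was lost under 8 of 15 alternatives, among them 5 of the 6 with a sample left out (adjusted p up to 0.195 in limma). With median scaling, with no detection filter, or without Sample871, Sample873, Sample872 or Sample906, 1 fast fibre gene remained called. Actn3 kept its call under all 15 alternatives.

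Genes of developing or denervated muscle ran mostly in the direction of Myl4. Of 13 genes listed, 12 had a probe under their symbol and 9 were measured. Of the 9 measured, 6 rose and 3 did not pass, with a median log2 fold change of 0.79. Chrna1 was detected on 0 of 6 arrays, Myod1 on 1 and Myf5 on 2, so they were not tested, and Myh3 had no probe. Myog, the myogenic factor myogenin, is 1 of the 6 and was retained only through the FRG1 arrays, as 0 of 3 wild type arrays detected it. It was at least 1.64-fold higher in FRG1 muscle, and with it at that bound the list's median was 0.75. Among probes detected on all 6 arrays, 4 genes of the list rose. After Myh8, already described, the smallest p-values were those of Chrng, the fetal acetylcholine receptor subunit, and Ncam1, a neural cell adhesion molecule. Chrng had a log2 fold change of 2.54 ± 0.21 (SE; limma adjusted p = 0.000101) but only 1 of the 3 wild type arrays detected it, and over the alternatives its log2 fold change ran between 1.66 and 3.09. Ncam1 rose by 1.59 ± 0.14 (adjusted p = 0.000111), on 1 of its 4 retained probes.

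**Figure D4:**
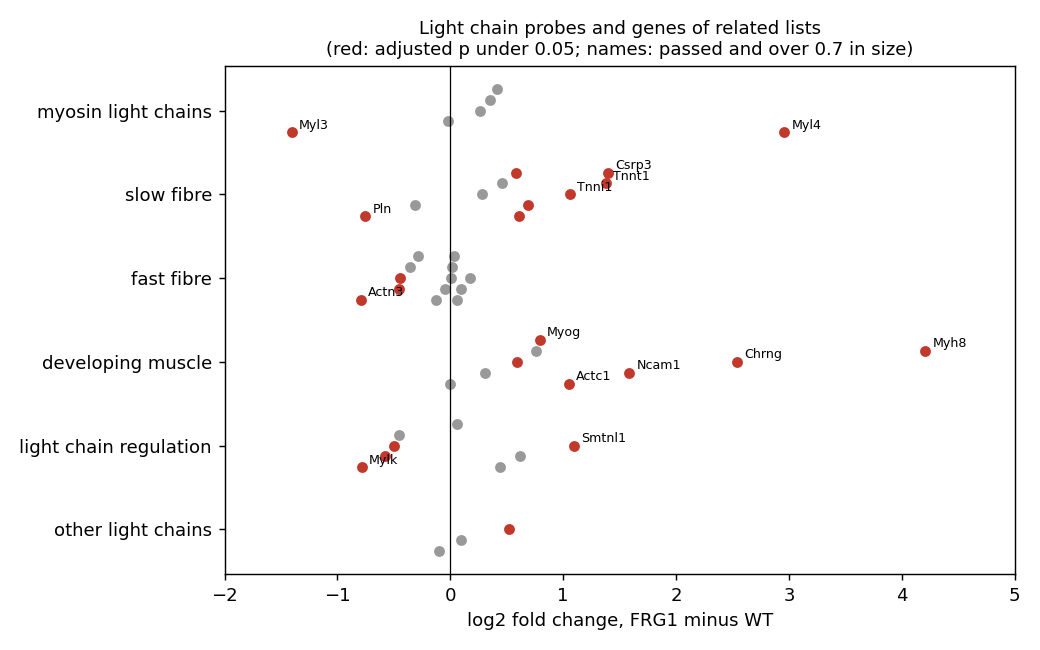
Log2 fold change (FRG1 minus wild type) of the 6 retained light chain probes and of the measured genes of 5 related lists, 1 point per probe or gene; red points passed an adjusted p of 0.05, and those over 0.7 in size are named. Myl3 lies left of every slow fibre gene, and Myl4 lies among the largest increases of developing muscle.

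Regulatory light chains are switched by phosphorylation, through calmodulin-activated light chain kinases and a myosin phosphatase. Of 12 genes listed for this control 8 were measured, 1 rose and 3 fell, with a median log2 fold change of -0.20. Smtnl1, a smoothelin-like protein that acts on the myosin phosphatase, had a log2 intensity of 10.85 ± 0.18 in FRG1 muscle and 9.76 ± 0.13 in wild type muscle (SD, n = 3 each; 2.14-fold, limma adjusted p = 0.000823). Mylk, the kinase of smooth muscle and non-muscle light chains, fell by 0.78 on the log2 scale (adjusted p = 0.00361), on 3 of its 3 retained probes. Calm2, which encodes calmodulin, fell by 0.58 (adjusted p = 0.0142), and lost its call without FRG1 Sample873 or FRG1 Sample874 (adjusted p up to 0.0749). Without FRG1 Sample873, 1 gene of this list fell, and without wild type Sample872, 2 rose. The skeletal kinase Mylk2 had no probe under its symbol and was not analysed here.

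Among the light chains outside the 7 members, 3 were measured. Myl12a, a non-muscle regulatory chain, rose by 0.52 ± 0.14 (SE, log2; limma adjusted p = 0.0356), a call lost under 7 of 15 alternatives and without any of 5 samples (adjusted p up to 0.140). Myl12b, a near-identical copy whose RNA the Myl12a probe may also bind, had 2 retained probes. The brighter gave a log2 fold change of 0.09 ± 0.15 and did not pass, whereas the other passed the test. Myl10 had a log2 fold change of -0.10 ± 0.17 (0.017 with median scaling). The atrial regulatory chain Myl7, which accompanies Myl4 in the atrium, was detected on 0 of 6 arrays.

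Some markers of other cells moved beside these genes. Heart genes Myh6, Nkx2-5 and Myl7 were detected on 0 of 6 arrays. Of the 4 measured heart genes 1 rose and 3 did not pass, with a median log2 fold change of 0.07. The 1 that rose, Nppb, the B-type natriuretic peptide, was retained only through the FRG1 arrays. It was at least 3.09-fold higher in FRG1 muscle, and 0 of 3 wild type arrays detected it. With any FRG1 sample left out its probe no longer met the detection filter. Of 12 measured macrophage markers 11 rose, with a summed linear level between 5400 and 6920 in FRG1 muscle and between 2617 and 2959 in wild type muscle, and 7 rose without FRG1 Sample873. Lgals3, galectin-3, led them at a log2 fold change of 2.59 ± 0.17 (SE). Of 10 smooth muscle and pericyte markers 7 did not pass and 3 fell, led by the channel subunit Abcc9 at -0.92 ± 0.14 (2 of its 3 retained probes passed). The summed level of all 10 lay between 6092 and 6814 in FRG1 muscle and between 6787 and 8586 in wild type muscle. These ranges overlap. Without FRG1 Sample871 or FRG1 Sample873, and also with median scaling, 1 of them fell, and Cnn1 was detected on 0 of 6 arrays. Of 12 endothelial markers 3 fell, with summed levels of 5078 to 6422 in FRG1 muscle and of 6780 to 8003 in wild type muscle, led by the junction protein Cldn5 at -0.76 ± 0.18. Its call was lost under 7 of 15 alternatives (adjusted p up to 0.0975 in limma), and the endothelial count was 1 without FRG1 Sample873, wild type Sample872, wild type Sample906 or wild type Sample923. Without FRG1 Sample871 it was 0 in limma, where the list's median log2 fold change was -0.44, beside -0.02 over all probes retained then. The endothelial count was also 0 with median scaling, with no detection filter and in the authors' processed values. The part of these cells in the Myl6, Myl12a and Mylk values was not tested.

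The genes whose profiles over the 6 arrays lay closest to each light chain were found by the root mean square difference of log2 values, each gene centred on its own mean, among 10060 other genes. For Myl4 they were Eda2r, a receptor for ectodysplasin A2, at 0.149 log2 units, Zfp365 at 0.184 and Clca4a at 0.190. Clca4a was at least 6.83-fold higher in FRG1 muscle, with 0 of 3 wild type arrays detecting it. For Myl3 they were Car4, a membrane-bound carbonic anhydrase, at 0.145, the co-chaperone Dnaja2 at 0.152 and Slc27a1, a fatty acid transporter, at 0.153. These distances are small beside the spread of the members themselves over the arrays, 1.49 for Myl4 and 0.715 for Myl3. The nearest genes to Myl2 were Nup160, Mrpl17 and Senp2, at 0.0324 to 0.0413, beside a spread of 0.161 for Myl2. Those nearest to Myl6 were Pepd, Fem1c and Pacsin3, at 0.0256 to 0.0377, beside 0.236 for Myl6. Those nearest to Myl1 were Slc9a2, Sec16b and Stip1, at 0.0174 to 0.0331, beside 0.0909 for Myl1, and such a small spread holds little pattern to match. All profiles share the same 6 arrays and their group difference.

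**Figure D5:**
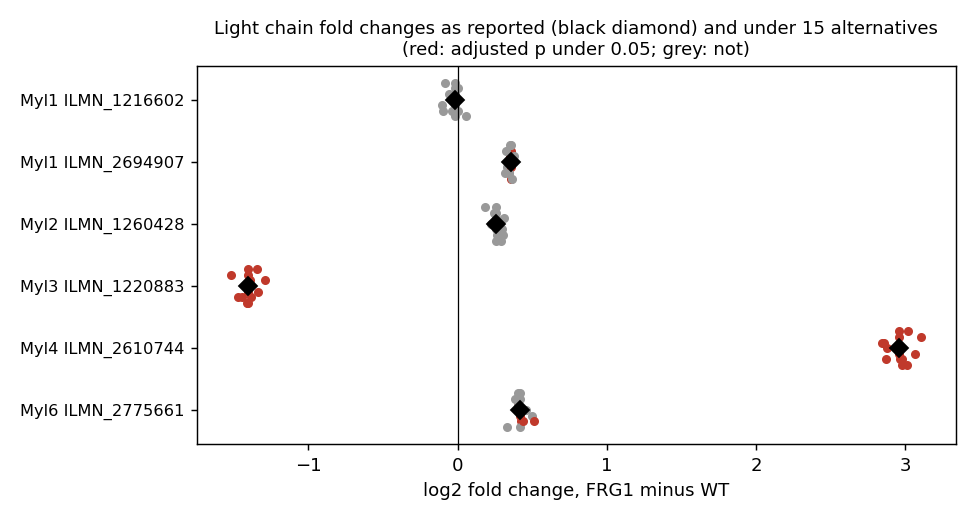
Log2 fold change (FRG1 minus wild type) of the 6 retained light chain probes as reported (black diamonds) and under 15 alternative settings (circles, red where the adjusted p was under 0.05). Myl4 stays between 2.84 and 3.11 and Myl3 between -1.52 and -1.29, while the first Myl1 probe lies on both sides of 0.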

How the data were processed

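RNA of 6 muscle samples was hybridised to 1 array each. Each probe has, per the file headers, its intensity on every array and a detection p-value, deposited without normalization. A second table holds intensities processed by the authors, for which lumi is named per the submitters' processing notes; no settings are named there, what was subtracted is unknown, and it served as an alternative (between 33.7% and 33.9% of its values lie below 0, with column medians of 5.07 to 5.15 and the rank order of the raw signal).

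With limma 3.58.1 in R 4.3.3, the steps of neqc were applied to the intensities: normexp background correction from the detection p-values, an offset of 16, quantile normalization, log2. The offset understates changes of dim probes. Retained probes were fitted on group alone with lmFit and eBayes, and two-sided p-values were adjusted over all 19563. The script was tested on simulated data. Probes were named from the platform annotation (29976 with 1 symbol, 10 with several, 16646 with none), with symbols updated through Entrez IDs.

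Where no array of a group detected a probe, the fold is a bound: the bright group's mean is set against the dim group's mean of, per array, the larger of the probe's own value and the lowest value among detected probes. Members and gene lists were chosen with earlier results of these data known. The rule for named genes took all members, up to 6 genes of each list by smallest p, and the 3 nearest in profile to each member. Only the first 3 of each list, and the first of each cell type list, are named and followed through the alternatives. That limit was set after their values were seen, with Myog added as the middle gene of its list. Some of the genes not measured or not detected, and the muscle check genes, are named besides. Nothing says how animals were bred or handled, so p-values refer to these samples. They set the group difference against the spread between samples, drawn for each probe toward a value common to all probes.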

Additional observations from a re-analysis of the deposited data

How the results depend on the processing

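Myl4 and Myl3 kept their direction and call under all 15 alternatives, with log2 fold changes of 2.84 to 3.11 (adjusted p up to 0.00271) and -1.52 to -1.29 (adjusted p up to 0.00754), and Myl2 stayed uncalled at 0.18 to 0.31. The count of light chain probes past the threshold was 4 without background correction, with an offset of 50 and with an intensity trend in eBayes, since the second Myl1 probe and Myl6 then passed. That Myl1 probe passed at 0.35 without background correction, at 0.35 with an offset of 50, at 0.35 with no detection filter, at 0.36 in the authors' processed values and at 0.35 with the trend. Myl6 passed at 0.43 with cyclic loess, 0.41 without background correction, 0.41 with an offset of 50, 0.44 with array weights, 0.42 with the trend and 0.42 with probes averaged per gene (adjusted p = 0.0403), and lay between 0.33 and 0.51 with 1 sample left out. The first Myl1 probe turned to 0.00045 with array weights and lay between -0.084 and 0.056 with 1 sample left out; with both probes averaged Myl1 was 0.17. The cause was not tested. Over all probes 2702 passed, and between 1161 and 2660 with 1 sample left out. Median scaling moved the middle of all fold changes by 0.13 (log2) and gave 79.1% of calls as higher, against 51.4% as reported; relative to the new median, Myl4 was then at 2.96 and Myl3 at -1.44. The differences of Myl4 and Myl3 from Myl1 were 2.60 and -1.76 with the second Myl1 probe, an alternative chosen after seeing the data.

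Among other named genes, all uncalled, signs turned for Slc9a2 (0.0024 with cyclic loess, 0.11 with median scaling), Sec16b (0.064 with cyclic loess, 0.19 with median scaling, 0.022 with array weights) and Myl10 (0.017 with median scaling). With 1 sample left out, the brighter Myl12b probe lay between -0.0055 and 0.25, Myl10 between -0.28 and 0.026 and Myh2 between -0.12 and 0.21. In the same settings Slc9a2 lay between -0.084 and 0.063, Sec16b between -0.085 and 0.077 and Stip1 between -0.083 and 0.082. No paired analysis was possible because the groups share no sample numbers, and no chip was named, so a chip block was not run. Differences of Myl2 from Mylpf and of Myl6b from Myl6 were not run, for want of a retained probe. Precision is limited by the 3 arrays per group.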
